A study of Mus musculus with 23 samples.

Results

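The 12 libraries described here hold messenger RNA from the hippocampi of mice of about 5 months that carry the genotype P16<KO/KO>, with or without an App knock-in. They are 12 of the 23 libraries of the series, 1 library per mouse. The 6 libraries labelled p16KO (numbers 7 to 12) have P16<KO/KO> alone. The 6 labelled AppNLGF_p16KO (numbers 18 to 23) have APP<NLGF/NLGF>P16<KO/KO>, so that by the labels both groups carry P16<KO/KO> and differ in the knock-in. The other libraries, 6 WT and 5 APP<NLGF/NLGF> (called AppNLGF), entered the same model and serve as the comparison with p16 present. The question the comparison addresses is what the App knock-in changes in the hippocampus of mice labelled as lacking p16.

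App encodes the amyloid precursor protein, from which secretases cut the amyloid beta peptide. The NLGF allele places familial Alzheimer mutations and a humanised amyloid beta sequence in the mouse gene, so that plaques form while App is driven from its own locus. Microglia, the resident macrophages of the brain, gather at plaques and switch on a programme of phagocytic, lysosomal and chemokine genes that depends on the lipid receptor Trem2 and its adaptor Tyrobp. p16INK4a, a product of Cdkn2a, blocks the cyclin D kinases and is a marker of senescent cells.

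The genotype could not be checked from Cdkn2a. The gene (ENSMUSG00000044303, GRCm38 chromosome 4, 89274471 to 89294653) encodes both p16INK4a and p19ARF, its counts do not separate the transcripts, and which stretch was deleted is not given in the sources used here. Libraries 7 to 12 held 0, 1, 2, 1, 0 and 0 reads of it, and libraries 18 to 23 held 0, 6, 6, 2, 8 and 2. The summed reads were 4 and 24, beside 17 in WT and 25 in AppNLGF, and 5 of the 6 AppNLGF_p16KO libraries held 2 reads or more. Mean Cdkn2a was 0.0117 ± 0.0141 CPM in p16KO and 0.0767 ± 0.0609 CPM in AppNLGF_p16KO (counts per 1000000 counts, SD, n = 6 each; two-sided exact permutation test over 924 splits, p = 0.0303). The p rose to 0.0563 without p16KO 8 or 10 and to 0.0693 without p16KO 7, 11 or 12. Directions below are therefore between libraries as labelled.

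Total counts, in units of 1000000, ran from 45.4 to 61.2 in p16KO and from 48.6 to 59.5 in AppNLGF_p16KO, and the mitochondrial share of counts from 2.79% to 3.54% and from 3.30% to 3.76%. Each group had 3 female mice of 6 by their Xist and Y-linked reads. Markers of neurons, astrocytes, microglia and oligodendrocytes, and of the dentate gyrus and the CA fields, were present in all 12 libraries. The T cell gene Cd3e lay between 0 and 0.134 CPM. AppNLGF_p16KO 21 alone passed the distance limit of the submitters (12.4 against a limit of 11.07 on the first 5 principal components), and p16KO 7 stood apart in the acute-phase gene Lcn2.

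In p16KO mice the App knock-in went with higher levels of a set of microglial genes, and few other genes passed the test. Of 19423 genes tested, 48 were called (0.247%) by edgeR's quasi-likelihood test at a Benjamini-Hochberg adjusted p under 0.05, 43 higher (0.221%) and 5 lower (0.0257%) in AppNLGF_p16KO. An unadjusted p under 0.05 was found for 1532 genes (7.89%), 892 higher and 640 lower. The 12 values of a gene separated the groups without overlap for 86 genes (0.443%), 64 of them above and 22 below. Over all genes tested the median log2 fold change was 0.01 and 51.6% of values were positive. The list counts below are to be read beside these shares over all genes. Each p-value sets a group difference against the spread between mice, 1 library each, as estimated over all 23 libraries.

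**Figure D1:**
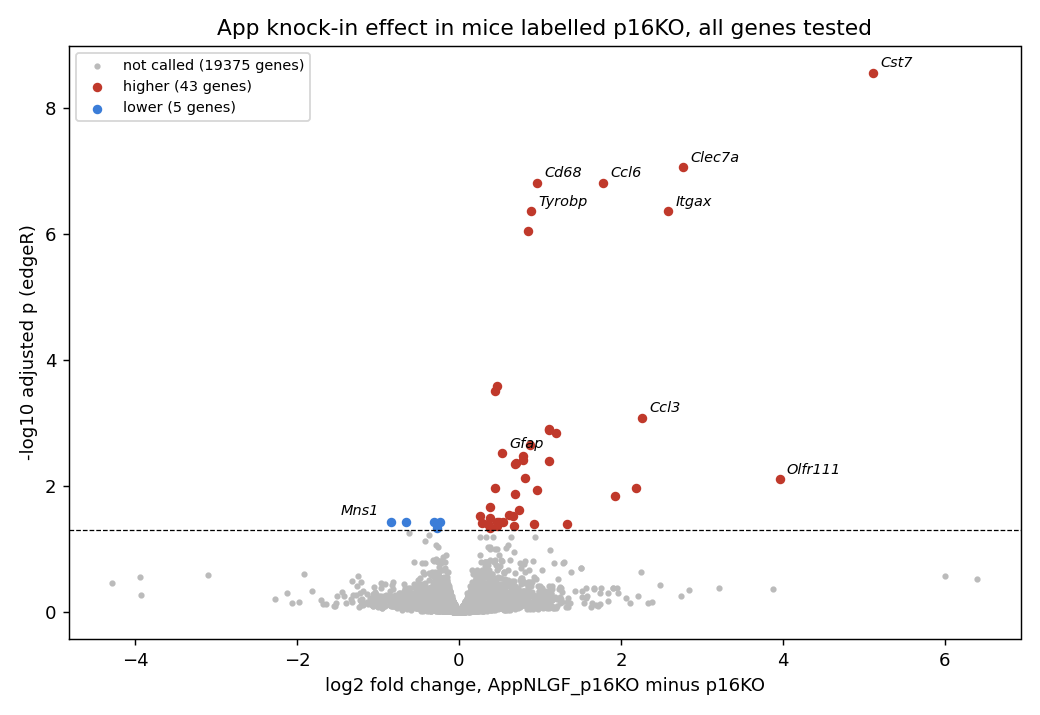
Log2 fold change of AppNLGF_p16KO over p16KO (x axis) against the negative log10 of the edgeR adjusted p (y axis) for the 19423 genes tested. Each point is a gene, the dashed line marks an adjusted p of 0.05, and the 43 higher genes in red reach far beyond the 5 lower genes in blue, with Cst7, Clec7a, Ccl6 and Cd68 at the top.

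The count of calls rested on single libraries. It was 29 without AppNLGF_p16KO 21 (29 higher and 0 lower), 29 without p16KO 11 and 31 without p16KO 12, and 61 without AppNLGF_p16KO 23. It was 19, all higher, when the fit held the 12 libraries alone, and 103 (73 higher and 30 lower) with DESeq2, which called all 48. Of the 48 genes, 27 were called in all 12 fits that left out 1 library, and 20 in those fits and in every other setting that gave them an adjusted p. Among these 20, Cst7 and Ccl3 had an adjusted p in 9 of the 10 other settings, and Olfr111 and Pdcd1 in 8. No called gene changed direction in any setting.

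The promoters of the microglial genes that rose were read for the GAGGAA core of ETS factors, the family of the microglial regulator PU.1. Of 17 rising genes of the microglial, complement and lysosomal lists, 13 matched the RefSeq promoter table (GRCm38.p6), read here over the 250 bases before each start. The longer PU.1-type motif GAGGAAGT was found, on either strand, in 1 gene, C1qc, against 2.44% of all 32851 promoters. The shorter GAGGAA, which the longer one contains, was added after the longer one had been searched. It lay in 7 of the 14 promoters of these genes (C1qb, C1qc, Ccl3, Cd68, Clec7a, Trem2) and in 23.3% of all promoters. By gene it was 6 of 13, because Clec7a has overlapping promoters that share 1 site. The E-box TCACGTGA (0.785% of all promoters) and an interferon-type motif (2.98%) were in none of the 14. The stretches of 4 genes are shown because Clec7a and Trem2 are the receptors, and C1qb and C1qc the neighbouring complement genes, that moved together in the counts; capitals mark the motif or its reverse complement, each is written 5′ to 3′ on the gene's strand, and a match is a match of letters only.
Clec7a, chr6:129472830-129472915, minus strand, bases -136 to -51: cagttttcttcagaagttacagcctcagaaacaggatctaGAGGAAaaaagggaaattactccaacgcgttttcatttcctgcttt
Trem2, chr17:48346321-48346400, plus strand, bases -80 to -1: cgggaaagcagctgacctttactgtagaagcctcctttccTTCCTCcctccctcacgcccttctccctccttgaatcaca
C1qb, chr4:136886201-136886270, minus strand, bases -70 to -1: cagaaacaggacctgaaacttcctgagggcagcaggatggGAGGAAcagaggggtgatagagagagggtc
C1qc, chr4:136893062-136893149, minus strand, bases -235 to -148: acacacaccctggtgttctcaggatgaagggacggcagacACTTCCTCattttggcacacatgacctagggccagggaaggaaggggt

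Clec7a and Itgax were among the receptors and surface proteins of plaque-associated microglia that rose. Clec7a, the beta-glucan receptor dectin-1, ran from 0.258 to 0.832 CPM (median 0.496) in p16KO and from 3.03 to 4.48 CPM (median 3.50) in AppNLGF_p16KO. Its log2 fold change was 2.77 ± 0.23 (SE, as for every log2 fold change here; adjusted p = 8.83e-08). Itgax, the integrin CD11c, ran from 0.276 to 0.515 CPM (median 0.347) and from 1.45 to 2.97 CPM (median 2.11). It rose by log2 2.59 ± 0.25 (adjusted p = 4.35e-07). In both genes the lowest knock-in library stood above the highest p16KO library. In bulk tissue more microglia and more RNA per microglial cell cannot be told apart.

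Trem2, the lipid receptor of the plaque response, ran from 11.6 to 15.7 CPM (median 12.6) in p16KO and from 20.5 to 28.4 CPM (median 23.6) in AppNLGF_p16KO, a log2 fold change of 0.85 ± 0.09 (adjusted p = 9.12e-07). Its adaptor Tyrobp ran from 12.2 to 15.4 CPM (median 14.2) and from 23.2 to 30.0 CPM (median 24.6), a log2 fold change of 0.89 ± 0.08 (adjusted p = 4.35e-07). The groups did not overlap in either gene, and library 21 was the highest for both. Among the 17 genes tested of Trem2 signalling these were the 2 called. The list had a median log2 of 0.24 with 15 positive, and 7 members had an unadjusted p under 0.05, all higher. Its kinases did not pass: Syk, which binds the adaptor, was at log2 0.17 and Btk at log2 0.31.

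Lysosomal and phagosomal genes rose beside the receptors. Cst7, cystatin F, an inhibitor of cathepsins, was nearly absent in p16KO at 0.0440 to 0.307 CPM (median 0.0969). It reached 3.68 to 6.54 CPM (median 4.43) in AppNLGF_p16KO. The fitted log2 fold change was 5.12 ± 0.34 (adjusted p = 2.82e-09), the same as a fitted fold of 34.7. Cd68, a glycoprotein of the lysosomal membrane of macrophages, ran from 7.03 to 8.50 CPM (median 7.48) and from 12.9 to 16.6 CPM (median 15.0; log2 0.97 ± 0.09, adjusted p = 1.55e-07). No library overlapped for either gene.

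Of 17 cathepsins and their inhibitors, 3 were called and all 17 were positive (median log2 0.18). Besides Cst7 they were Ctss, which trims the class II invariant chain (log2 0.44 ± 0.08, adjusted p = 0.0107), and the carboxypeptidase Ctsz (log2 0.39 ± 0.08, adjusted p = 0.0318). For Ctss the p16KO libraries ran from 64.3 to 90.2 CPM and the knock-in libraries from 89.5 to 114 CPM, and for Ctsz from 30.6 to 38.3 and from 36.8 to 51.3 CPM, so 1 library or more overlapped in each. Ctss lost its call in the fit of the 12 libraries alone (adjusted p = 0.0793). Ctsz lost it in that fit and without any 1 of 8 libraries (up to 0.144). The aspartic protease Ctsd was at log2 0.32 and did not pass. Without AppNLGF_p16KO 21 the median of the list was 0.10, with 14 of 17 positive.

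Of 50 other lysosomal genes, the hydrolases, membrane proteins and proton pump, 3 were called and 46 were positive, with a median log2 of 0.07. The called genes included Cd68 and Gusb. Gusb, the beta-glucuronidase gene, ran from 14.7 to 16.7 CPM and from 18.1 to 21.3 CPM (log2 0.28 ± 0.06, adjusted p = 0.0380). Gusb was called in 4 of the 12 fits without 1 library, not in that without AppNLGF_p16KO 21 nor in that of the 12 libraries alone (adjusted p up to 0.178). Without AppNLGF_p16KO 23 the list median was 0.11. Slc11a1, a metal transporter of the phagosome, rose by log2 0.80 ± 0.13 (1.66 to 2.55 and 2.87 to 4.23 CPM, adjusted p = 0.00387). Slc15a3, a peptide and histidine transporter of lysosomes, rose by log2 0.79 ± 0.13 (1.68 to 2.85 and 3.17 to 5.00 CPM, adjusted p = 0.00332). Progranulin, the product of Grn, is a lysosomal growth factor whose gene was close to the threshold (log2 0.26 ± 0.06, adjusted p = 0.0639). It was singled out after its value was seen.

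**Figure D2:**
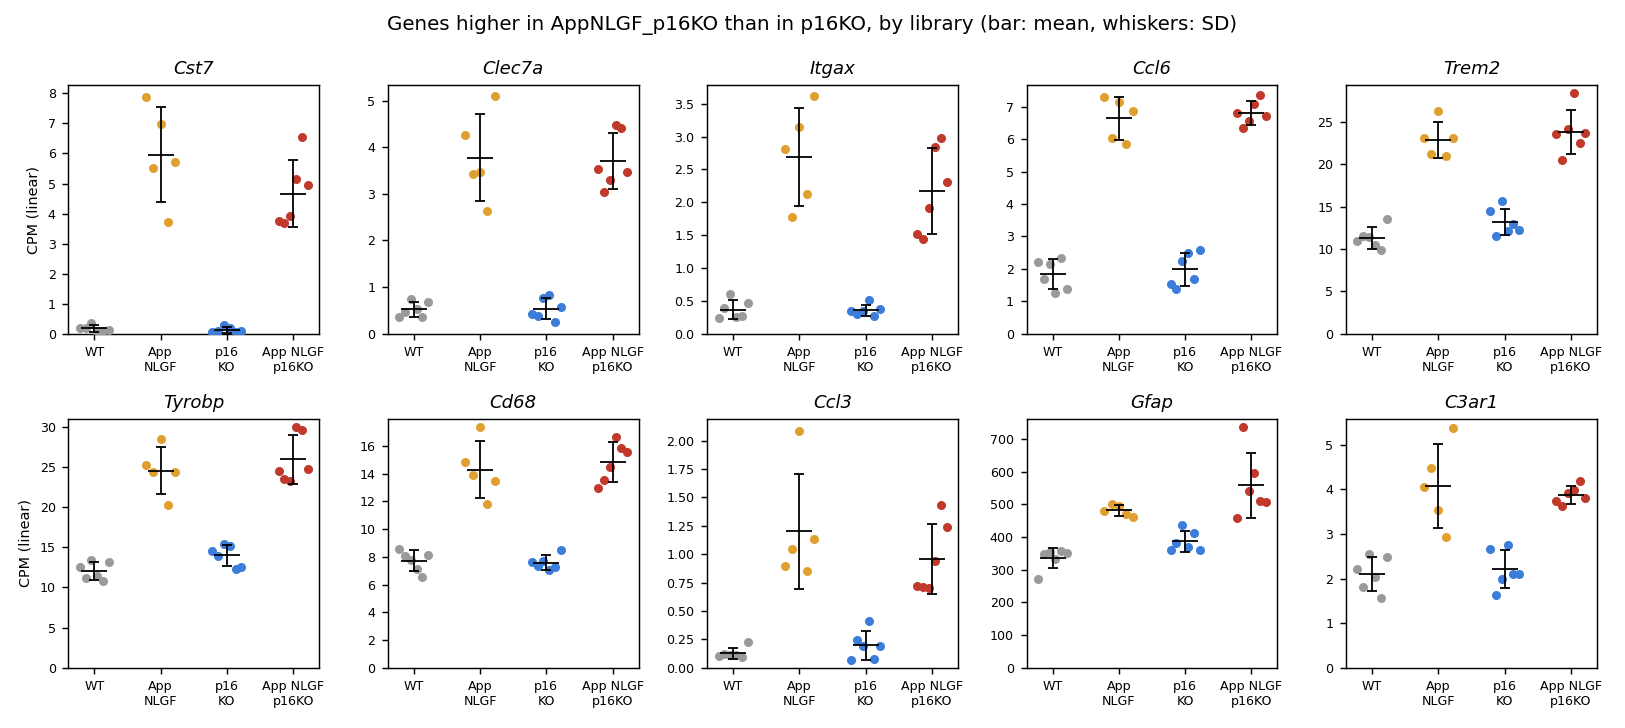
CPM of 10 genes in each of the 23 libraries (y axis, linear, from 0), by genotype (x axis). Points are libraries, the bar is the mean and the whiskers the SD. In each panel all AppNLGF_p16KO points lie above all p16KO and WT points. Gfap has 1 AppNLGF_p16KO library at 737 CPM.

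Chemokines formed a further group. Of 22 chemokine and receptor genes tested, 4 were called higher and 0 lower (median log2 0.19, or 0.13 without p16KO 11, 16 positive), and the 4 lie side by side on chromosome 11, from Ccl9 at 83572919 to Ccl4, ending at 83664683 (GRCm38). Ccl6 ran from 1.37 to 2.58 CPM (median 1.96) and from 6.33 to 7.35 CPM (median 6.75), a log2 fold change of 1.78 ± 0.16 (adjusted p = 1.55e-07). Ccl3, a macrophage inflammatory protein, ran from 0.0660 to 0.416 CPM (median 0.189) and from 0.700 to 1.43 CPM (median 0.832). It rose by log2 2.27 ± 0.33 (adjusted p = 8.26e-04). Its neighbour Ccl4, a closely related chemokine, rose by log2 1.93 ± 0.37 (adjusted p = 0.0142), from at most 0.172 CPM to at least 0.218 CPM, and Ccl9 by log2 0.67 ± 0.14 (adjusted p = 0.0300). In these 4 genes the groups did not overlap. Ccl4 and Ccl9 lost their calls in the fit of the 12 libraries alone (0.134 and 0.178), and Ccl9 without any 1 of 8 libraries.

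Complement genes split. Of 22 tested, 4 were called higher and 0 lower, and the median log2 of the list was 0.04 with 13 positive. Without p16KO 7 the median was 0.17. Itgax, part of complement receptor 4, and C3ar1, the receptor of C3a, rose without overlap. C3ar1 ran from 1.63 to 2.75 CPM and from 3.62 to 4.18 CPM (log2 0.81 ± 0.14, adjusted p = 0.00736). C1qb and C1qc encode chains of C1q, which starts the classical pathway. C1qb rose by log2 0.49 ± 0.10 (adjusted p = 0.0375), from 38.7 to 55.1 CPM in p16KO and from 50.5 to 76.1 CPM in AppNLGF_p16KO. C1qc rose by log2 0.47 ± 0.10 (adjusted p = 0.0375). The groups overlapped for both C1q genes, and both lost their calls without any 1 of 7 libraries and in 3 other settings (adjusted p up to 0.215). C4b, the C4 gene of mouse, was at log2 0.22 and did not pass.

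The list of 46 plaque-induced microglial genes had 13 called, 0 lower, 44 positive and a median log2 of 0.33, against 51.6% positive over all genes tested. The called share was 28.3%. These genes are known to rise around plaques, so their direction here is not independent evidence. Members that are lipid-handling or late genes of the same programme were not called: Apoe was at log2 0.02, Lpl at -0.09, Gpnmb at 0.34, Spp1 at 0.60 and Lgals3 at 0.00. Axl, a receptor for apoptotic cells, was at log2 0.11 ± 0.07 (adjusted p = 0.732). Without AppNLGF_p16KO 21, 11 were called and the median was 0.29.

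Of 30 homeostatic microglial genes, 2 were called higher, among them the fatty acid receptor Gpr84, and 26 were positive (median log2 0.22). Gpr84 ran from 0.539 to 0.887 CPM in p16KO and from 0.926 to 1.53 CPM in AppNLGF_p16KO without overlap (log2 0.97 ± 0.18, adjusted p = 0.0118). Gpr84 is better known as a gene of activated microglia. The homeostatic markers proper did not pass: the purinergic receptor P2ry12 was at log2 0.21, the fractalkine receptor Cx3cr1 at 0.08, Tmem119 at 0.03 and the growth factor receptor Csf1r at 0.15. Summed over the list, p16KO libraries held 1835 to 2000 CPM and AppNLGF_p16KO libraries 1983 to 2160 CPM.

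Further leucocyte genes rose, and except for Cd52 those named next belong to none of the lists used. Cd52, a small glycoprotein of the leucocyte surface listed with the plaque-induced genes, rose by log2 1.11 ± 0.17 (1.01 to 1.92 and 2.24 to 3.86 CPM, adjusted p = 0.00124). Cd180, a Toll-like receptor homologue, rose by the same log2 1.11 ± 0.17 (1.45 to 2.81 and 3.65 to 4.74 CPM, adjusted p = 0.00129). Arl11, a small GTPase of macrophages, ran from 0.262 to 0.553 and from 0.889 to 1.17 CPM (adjusted p = 0.00144) and Samsn1, an adaptor of blood cells, rose by log2 0.87 ± 0.14 (adjusted p = 0.00224). Hcls1, the cortactin homologue of blood cells, was tight in both groups, at 3.92 to 4.52 and 5.40 to 6.00 CPM (log2 0.47 ± 0.06, adjusted p = 2.62e-04). Lsp1, an actin-binding protein of leucocytes, rose by log2 0.69 ± 0.12 (adjusted p = 0.00446). In these 6 genes the lowest knock-in library lay above the highest p16KO library.

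H2-Ob, a chain of the class II peptide-loading regulator H2-O, rose by log2 1.12 ± 0.19 (0.490 to 0.880 and 0.929 to 1.85 CPM, adjusted p = 0.00401). The rest of antigen presentation did not follow at this threshold. Of 23 such genes tested 0 were called by edgeR and 0 by DESeq2, 5 had an unadjusted p under 0.05, and the median log2 was 0.17 (0.11 without p16KO 10) with 17 positive. Beta-2-microglobulin, B2m, was at log2 0.27 ± 0.11 (adjusted p = 0.543), and the class I heavy chain H2-D1 at 0.53 ± 0.23 (adjusted p = 0.591). H2-D1 ran from 29.4 to 74.3 CPM in p16KO and from 33.7 to 79.5 CPM in AppNLGF_p16KO, and the 74.3 belonged to p16KO 7.

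A trio of receptors of the SLAM family, which tune leucocyte contacts and lie on chromosome 1, were called. Cd84 rose by log2 0.70 ± 0.12 (adjusted p = 0.00437), with libraries meeting between 2.87 and 2.93 CPM. Cd48 rose by log2 0.74 ± 0.15 (adjusted p = 0.0245) and Ly9 by log2 1.34 ± 0.29 (adjusted p = 0.0396). Cd48 lost its call without any 1 of 5 libraries (adjusted p up to 0.144 over all settings) and Ly9 without any 1 of 10 (up to 0.215). Pdcd1, which encodes the inhibitory receptor PD-1, rose by log2 2.19 ± 0.40 (adjusted p = 0.0107) but stayed at or under 0.541 CPM in every library. The proton channel Hvcn1 (log2 0.70 ± 0.13), pleckstrin, Plek (0.39 ± 0.08), the pore-forming Mpeg1 (0.62 ± 0.12), the tetraspanin Cd37 (0.54 ± 0.11) and the oxysterol receptor Gpr183 (0.68 ± 0.15) were also called, at adjusted p from 0.0134 to 0.0427. Plek was called in 8 of the 12 fits without 1 library, Mpeg1 in 5, Cd37 in 4 and Gpr183 in 1. Cd48, Ly9, Mpeg1, Cd37 and Gpr183 lost their calls without AppNLGF_p16KO 21 and in the fit of the 12 libraries alone, and Hvcn1, Cd84, Slc15a3 and Gpr84 in the latter alone (0.0610 or 0.0611). Cd48, Ly9, Pdcd1 and these 5 were chosen for naming after their values were seen. Of 10 T cell and other leucocyte genes tested 0 were called by edgeR or DESeq2, and 1 had an unadjusted p under 0.05. The 16 other members of that list, Cd3e among them, had too few reads to be tested.

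Olfr111, an olfactory receptor gene, was called from very few reads: 5 of 6 p16KO libraries were at 0 CPM and the sixth at 0.0594 CPM, while the knock-in libraries ran from 0.101 to 0.344 CPM (adjusted p = 0.00774). Genes outside these groups also rose, among them the urea transporter Slc14a1 (log2 0.36 ± 0.08, adjusted p = 0.0401), the inositol phosphate kinase Ip6k3 (0.93 ± 0.20, 0.0402) and Bnip5 (0.47 ± 0.10, 0.0427). Olfr111, Slc14a1 and Ip6k3 were likewise named after their values were seen. Slc14a1, Ip6k3 and Bnip5 each lost the call without any 1 of 9 or more libraries.

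Astrocytes were represented by Gfap. The gene of the astrocyte intermediate filament ran from 359 to 437 CPM (median 376) in p16KO and from 459 to 737 CPM (median 524) in AppNLGF_p16KO, without overlap. Its log2 fold change was 0.53 ± 0.09 (adjusted p = 0.00304), and the call was lost in the fit of the 12 libraries alone (0.0611). It was the 1 gene called of 32 reactive astrocyte genes, which had a median log2 of 0.08 (0.12 without AppNLGF_p16KO 23) with 20 positive. Serpina3n was at log2 0.16 and Vim at 0.06, neither past the test. The 18 general astrocyte markers had a median log2 of 0.05 (-0.02 without AppNLGF_p16KO 21) and 0 calls by edgeR or DESeq2, 2 with an unadjusted p under 0.05. Lcn2 had a fitted log2 of -4.28 ± 1.32 (adjusted p = 0.339) that rested on p16KO 7, at 19.2 CPM. The other 11 libraries of both groups lay between 0.0369 and 0.288 CPM, and without p16KO 7 the value was 0.32.

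The interferon response was not called. Of 34 genes tested 0 passed with edgeR or DESeq2 and 5 had an unadjusted p under 0.05 (7.89% over all genes). Positive values were found for 31 (51.6% over all genes), with a median log2 of 0.19. Cmpk2 was at log2 0.19 ± 0.08 (adjusted p = 0.571) and Ifi27 at 0.06 ± 0.11 (adjusted p = 0.923). The receptors for Fc, Toll-like ligands and phagocytosis had 0 of 32 called with edgeR (7 at an unadjusted p under 0.05), 1 with DESeq2, and a median log2 of 0.07 (0.15 without p16KO 7). The cytokine gene Il1b, singled out after its value was seen, lay from 0.0957 to 0.180 CPM and from 0.223 to 0.366 CPM. The groups did not overlap, and its log2 of 1.02 ± 0.35 did not pass (adjusted p = 0.408).

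**Figure D3:**
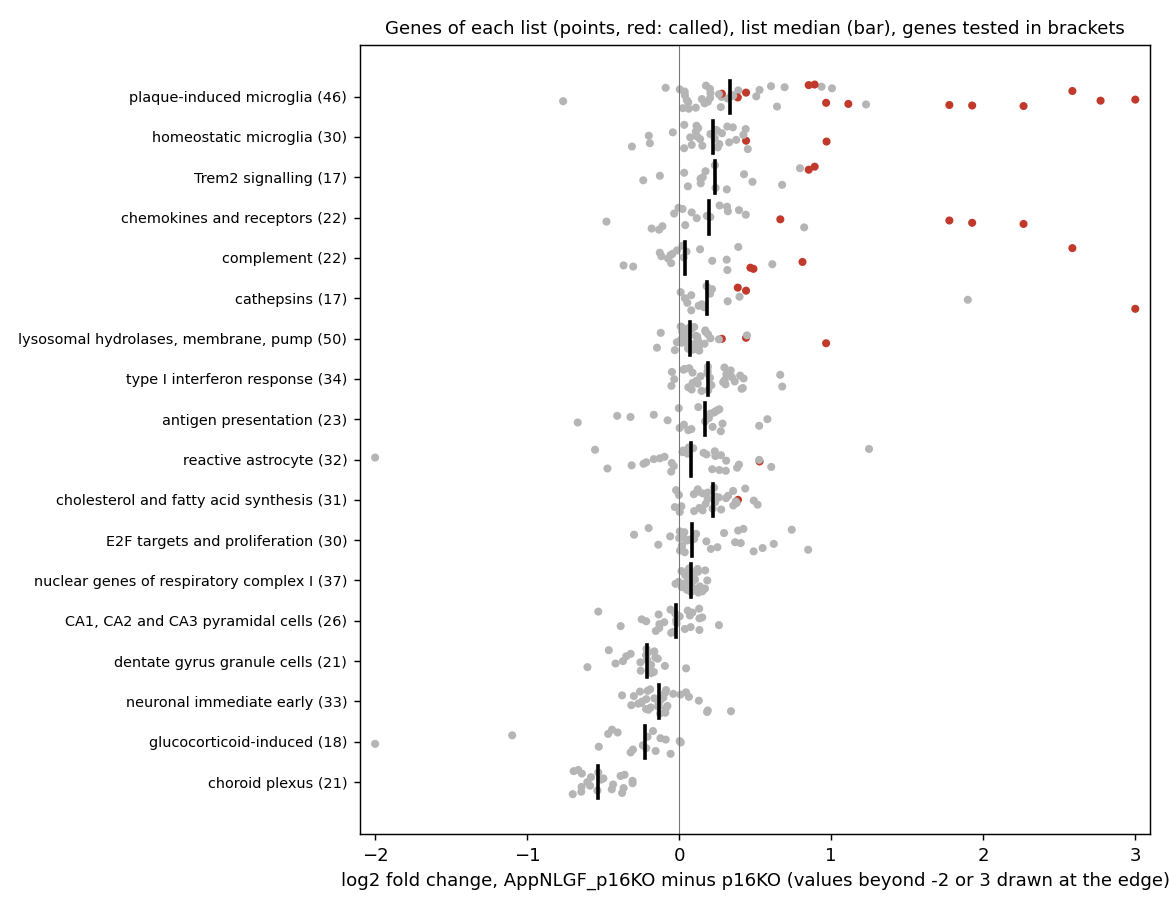
Log2 fold change of AppNLGF_p16KO over p16KO (x axis) for the tested genes of 18 lists (y axis, number of genes in brackets). Points are genes, red where called, and the black bar is the list median. Plaque-induced microglia have their median at 0.33 and 13 red points, while the dentate (-0.21) and choroid plexus (-0.53) lists lie left of 0 with none.

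Genes of cholesterol synthesis and uptake had positive values. The list of 31 genes had a median log2 of 0.22 with 28 positive, and 19 members had an unadjusted p under 0.05, all higher, against 7.89% of all genes in either direction. The sterol sensor Insig1 was at log2 0.49 ± 0.12 (adjusted p = 0.124), Fdps at 0.52 ± 0.13 (0.148) and Sqle, squalene epoxidase, at 0.35 ± 0.09 (0.159). The fatty acid synthesis genes Fasn and Acaca were at log2 0.01 and 0.00.

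The spread within the knock-in group was wide for these genes. Insig1 stood at 80.4, 89.9 and 91.4 CPM in libraries 18, 19 and 21 and at 54.4 to 63.1 CPM in libraries 20, 22 and 23, against 46.5 to 56.0 CPM in p16KO. Summed over the list, libraries 19 and 21 held 5398 and 5539 CPM and the other knock-in libraries 4238 to 4845 CPM, with p16KO between 4096 and 4562 CPM. Fdft1, Hsd17b7, Insig1, Nsdhl, Sqle and Stard4 were called without AppNLGF_p16KO 23, and in none of the other 11 fits that left out 1 library. The 25 genes of lipid transport around Apoe had a median log2 of 0.02, and of -0.02 without AppNLGF_p16KO 21.

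The other 5 called genes fell. Kdm7a, a histone demethylase, ran from 110 to 142 CPM (median 124) in p16KO and from 85.9 to 110 CPM (median 105) in AppNLGF_p16KO, just without overlap (log2 -0.30 ± 0.06, adjusted p = 0.0375). Dnajb5, a co-chaperone of the Hsp40 family, ran from 150 to 165 CPM and from 123 to 146 CPM (log2 -0.23 ± 0.05, adjusted p = 0.0375). It was the 1 gene called of 29 heat shock genes, which had a median log2 of -0.01 (0.03 without p16KO 8). Rnf19a, a ubiquitin ligase, ran from 61.4 to 77.6 CPM and from 54.8 to 60.5 CPM (log2 -0.27 ± 0.06, adjusted p = 0.0461). These 3 were below the p16KO range in every knock-in library.

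Il1r1, the interleukin 1 receptor, ran from 19.2 to 40.3 CPM (median 23.5) in p16KO and from 12.9 to 19.3 CPM (median 16.1) in AppNLGF_p16KO (log2 -0.65 ± 0.13, adjusted p = 0.0372). The groups met at 19.2 and 19.3 CPM. The 40.3 belonged to p16KO 7, the library high in Lcn2, and without it Il1r1 was at log2 -0.47 with adjusted p = 0.0277. Mns1, a gene of motile cilia and flagella, ran from 4.29 to 7.78 CPM (median 7.09) and from 2.56 to 4.90 CPM (median 3.44; log2 -0.83 ± 0.18, adjusted p = 0.0375), and the groups overlapped. Beside it, 24 of 25 ependymal cilia genes were negative with a median log2 of -0.26 and 0 calls by edgeR (2 at an unadjusted p under 0.05). Their summed level was 83.7 to 143 CPM in p16KO and 86.4 to 130 CPM in AppNLGF_p16KO, and their part in the Mns1 value was not tested. All 5 falling genes lost their calls without AppNLGF_p16KO 21 and in the fit of the 12 libraries alone. They were also lost without other single libraries. Of the 12 fits without 1 library, Il1r1 and Kdm7a were called in 5, Mns1 in 4, and Dnajb5 and Rnf19a in 2. The largest adjusted p in those fits was 0.131 for Il1r1, Mns1, Kdm7a and Dnajb5 and 0.166 for Rnf19a.

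**Figure D4:**
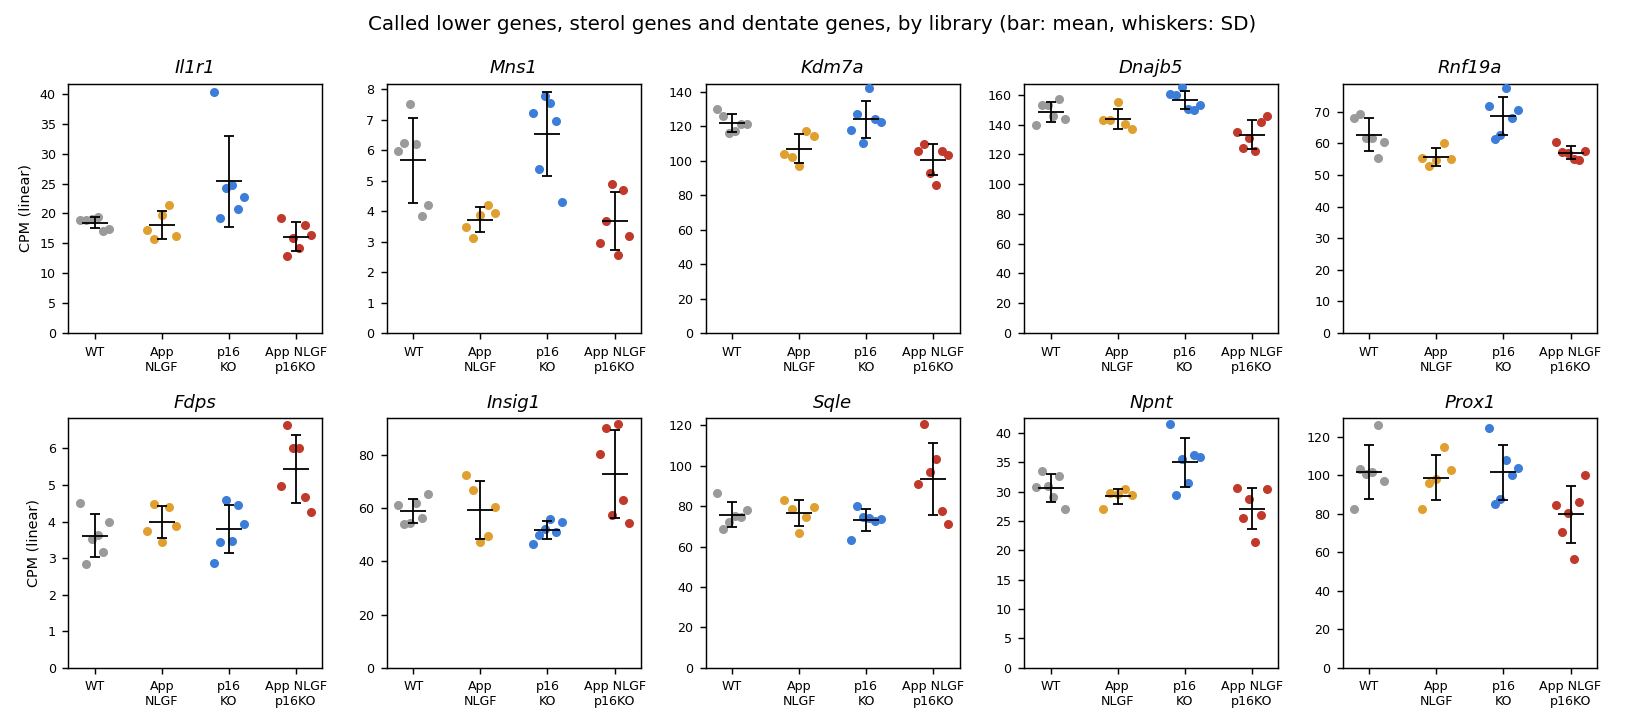
CPM of 10 genes in each library (y axis, linear, from 0) by genotype (x axis), with mean (bar) and SD (whiskers). The upper row holds the 5 genes called lower, with p16KO 7 at 40.3 CPM of Il1r1. The lower row holds the sterol genes Fdps, Insig1 and Sqle, spread out in AppNLGF_p16KO, and the dentate genes Npnt and Prox1.

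Neuronal lists had no call. Of 21 genes of dentate granule cells 20 were negative, with a median log2 of -0.21, 0 called by edgeR and 9 at an unadjusted p under 0.05, all lower; DESeq2 called 3. Npnt, nephronectin, was closest to the threshold among them, at 29.5 to 41.5 CPM and 21.3 to 30.6 CPM (log2 -0.37 ± 0.08, adjusted p = 0.0603). Prox1, the transcription factor that sets granule cell identity, was at log2 -0.35 ± 0.12 (adjusted p = 0.401), Sema5a at -0.32 ± 0.08 (0.148), Tdo2 at -0.46 ± 0.12 (0.166) and C1ql3 at -0.25 ± 0.07 (0.229). The summed list was 1720 to 2068 CPM in p16KO and 1372 to 1796 CPM in AppNLGF_p16KO, lowest in library 21. The 26 genes of the CA fields had a median log2 of -0.02 and summed to 2150 to 2297 CPM and 2156 to 2412 CPM. Whether the proportion of dentate tissue moved with this was not tested.

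Immediate early genes, which follow neuronal firing, had a median log2 of -0.13 with 26 of 33 negative and 0 calls by edgeR or DESeq2, 7 at an unadjusted p under 0.05. Nr4a3 was at log2 -0.26 ± 0.07 (adjusted p = 0.159) and Fosl2 at -0.25 ± 0.07 (0.196). Without AppNLGF_p16KO 23 the median was -0.08. Genes induced by glucocorticoids had a median log2 of -0.23 with 16 of 18 negative, 0 called by edgeR and 4 at an unadjusted p under 0.05. Without p16KO 7 that median was -0.12. Presynaptic, glutamate receptor, GABA and channel lists had medians between -0.05 and 0.06 and 0 calls.

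Choroid plexus genes were negative in 21 of 21 (median log2 -0.53) with 0 called and 0 at an unadjusted p under 0.05. Ttr, the transthyretin gene of this tissue, ran from 534 to 5355 CPM in p16KO and from 232 to 2399 CPM in AppNLGF_p16KO (log2 -0.66 ± 0.68, adjusted p = 0.843). Without p16KO 12, the library at 5355 CPM, the list median was -0.18. Blood genes had 0 of 7 called and border macrophages, by Mrc1, did not differ past the test (log2 0.11 ± 0.19, adjusted p = 0.917). Nuclear genes of respiratory complex I had a median log2 of 0.08 with 35 of 37 positive and 0 calls by edgeR or DESeq2 (3 at an unadjusted p under 0.05). Without AppNLGF_p16KO 21 that median was 0.03. Myelin genes had a median log2 of 0.09 with 27 of 30 positive and 0 calls (1 at an unadjusted p under 0.05), and 0.01 without AppNLGF_p16KO 21.

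App itself was at 1564 to 1718 CPM in p16KO and 1465 to 1650 CPM in AppNLGF_p16KO (log2 -0.06 ± 0.04, adjusted p = 0.759), and 0 of 25 genes of the App family and its processing enzymes were called (1 at an unadjusted p under 0.05). Within 10 Mb of App 1 of 96 genes tested was called, Samsn1, and within 10 Mb of Cdkn2a 0 of 70. Next to Cdkn2a, the kinase inhibitor Cdkn2b was at log2 0.33 ± 0.22 (adjusted p = 0.759) and Mtap at 0.20 ± 0.09 (adjusted p = 0.553). E2F targets had a median log2 of 0.08 (26 of 30 positive, 0 called, 4 at an unadjusted p under 0.05), D cyclins with their kinases and Rb proteins -0.03, and p53 targets -0.04. Among all genes tested 51.6% were positive and 7.89% had an unadjusted p under 0.05. Without AppNLGF_p16KO 21 the D cyclin and p53 lists were at -0.01 each, and the E2F list was at 0.04 without AppNLGF_p16KO 19 and at 0.14 without p16KO 10. Of the secretory genes of senescent cells 24 were tested, 0 were called and 6 had an unadjusted p under 0.05, all higher (median log2 0.08, or 0.05 without AppNLGF_p16KO 23). Plau, urokinase, was closest, at 1.67 to 2.75 CPM and 2.93 to 4.28 CPM (log2 0.64 ± 0.15, adjusted p = 0.0648).

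The same knock-in effect was measured with p16 present, as AppNLGF minus WT, in 11 libraries that share none with the 12 above. There 62 genes were called (0.319%), 59 higher and 3 lower. Of the 48 genes called without p16, 32 were also called with it, which is 66.7% of the 48 and 51.6% of the 62. Direction was the same for 47 of the 48, for 42 of the 43 that rose and for the 5 that fell. Over all genes tested, the direction was the same for 53.4%. Across the 48 genes the log2 fold changes of both comparisons had a Pearson r of 0.957, given as a description over genes of 1 shared model. The value without p16 was the larger in size for 25 of 48. Because the 48 were chosen by that value, this count cannot show which effect was the larger. Of the 62 genes called with p16 present, 60 had the same direction without it.

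Side by side, Cst7 was at log2 5.12 without p16 and 5.04 with it, Clec7a at 2.77 and 2.83, Itgax at 2.59 and 2.84, and Ccl6 at 1.78 and 1.84. Trem2 was at 0.85 and 1.01, Tyrobp at 0.89 and 1.01, Cd68 at 0.97 and 0.88 and Gfap at 0.53 and 0.51. The widest gap among the chemokines was in Ccl3, at 2.27 ± 0.33 and 3.21 ± 0.36. The test of that difference gave an unadjusted p of 0.0674 (adjusted p = 0.897).

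**Figure D5:**
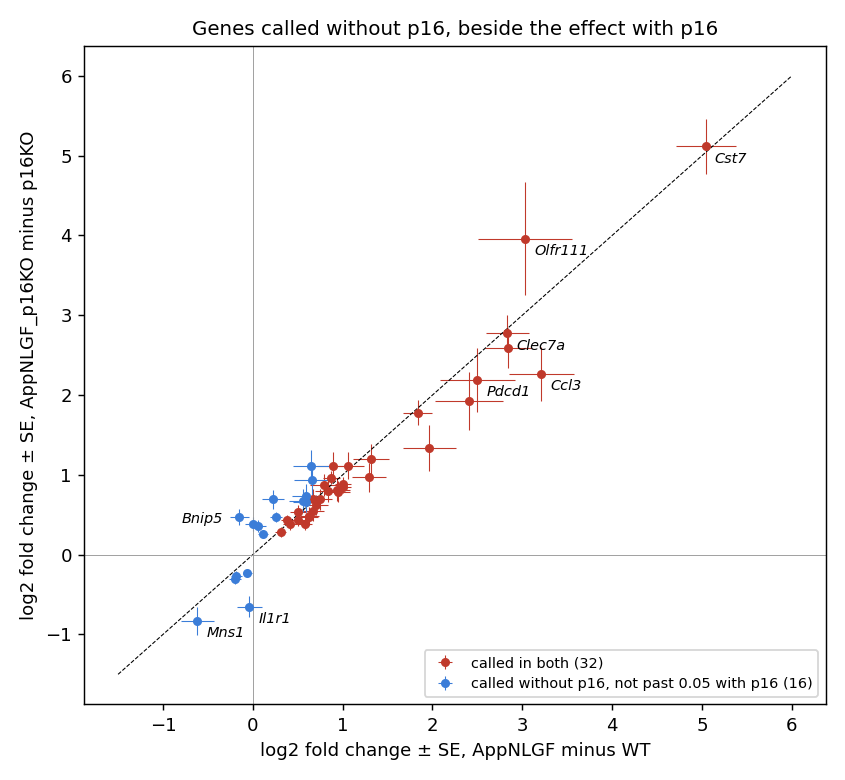
Log2 fold change ± SE of the App knock-in with p16 present (x axis, AppNLGF minus WT) and in p16KO (y axis, AppNLGF_p16KO minus p16KO) for the 48 genes called in the latter. The dashed line marks equal values. The 32 genes called in both comparisons were higher in each and lie on both sides of it. Ccl3 lies below (3.21 with p16 present, 2.27 in p16KO) and Olfr111 above (3.03 and 3.96). Bnip5 is the 1 gene with opposite signs.

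The interaction, the difference between both App effects, was called for 0 of 19423 genes by edgeR (0%). An unadjusted p under 0.05 was found for 1021 genes (5.26%), and the smallest adjusted p was 0.897. DESeq2 called 1, the predicted gene Gm18733 (adjusted p = 0.0189, against 0.897 by edgeR). Of the 48 genes, 7 had an unadjusted interaction p under 0.05, among them Lsp1, Hcls1, Il1r1, Dnajb5, Bnip5 and Slc14a1. The 48 were chosen by the App effect without p16, which is part of the interaction. Their share therefore cannot be set against the 5.26% of all genes. Lsp1 was at log2 0.69 ± 0.12 without p16 and 0.22 ± 0.12 with it (unadjusted edgeR interaction, 0.0114). Il1r1 was at -0.65 ± 0.13 and -0.04 ± 0.14 (0.00442). None of these passed adjustment (0.897 each).

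The 5 named genes with the smallest interaction p were C5ar2, Bnip5, Pamr1, Lgi2 and Gabra3. C5ar2, a receptor of complement C5a, was higher in AppNLGF than in WT (0.934 to 1.26 and 0.490 to 0.706 CPM, log2 0.87 ± 0.16, adjusted p = 0.00606). In AppNLGF_p16KO it lay at 0.697 to 0.857 CPM, inside the p16KO range of 0.616 to 1.09 CPM (log2 -0.07 ± 0.15, adjusted p = 0.931). The interaction was -0.95 ± 0.22 (unadjusted p = 2.49e-04, adjusted p = 0.897). Bnip5 was at log2 0.47 ± 0.10 without p16 and -0.15 ± 0.11 with it, an interaction of 0.62 ± 0.15 (unadjusted p = 2.97e-04). Lgi2 was at 0.63 ± 0.16 and -0.26 ± 0.16, Pamr1 at 0.20 ± 0.10 and -0.40 ± 0.11, and the GABA receptor subunit Gabra3 at 0.29 ± 0.09 and -0.20 ± 0.09.

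By list, the interaction was not called for any gene, and medians are given side by side. Plaque-induced microglia were at a median log2 of 0.33 without p16 (13 called) and 0.56 with it (19 called). The interferon list was at 0.19 and 0.43, complement at 0.04 (0.17 without p16KO 7) and 0.22, and immediate early genes at -0.13 (0 called) and -0.27 (2 called, both lower). An unadjusted interaction p under 0.05 was found for 3 of 46 plaque-induced and 0 of 34 interferon genes. The same held for 3 of 22 complement and 4 of 33 immediate early genes. Cholesterol synthesis was at 0.22 and 0.00, with 8 of 31 members at an unadjusted interaction p under 0.05, against 5.26% of all genes. Dentate genes were at -0.21 and -0.01, with 3 of 21. Choroid plexus genes were at -0.53 and 0.38, negative in 21 of 21 and positive in 21 of 21, with 0 of 21 at an unadjusted interaction p under 0.05.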

How the data were processed

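Hippocampal poly-A RNA was sequenced with 1 library per mouse. The deposited values are raw counts. Per the series' design text, reads were trimmed, freed of ribosomal reads and aligned to GRCm38, and the authors counted uniquely aligned reads per gene. The submitters' processing notes name cutadapt 4.2, Bowtie2 2.3.5, STAR 2.7.10b and DESeq2 1.45.3, and list mm39 besides GRCm38. The deposited median transcript length, another value per gene, was not used in tests. All 23 count columns were used, over 37173 genes.

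edgeR 4.0.16 in R 4.3.3 was fitted to all 23 libraries (4 group means, TMM, robust quasi-likelihood F test, two-sided), with filterByExpr at a minimum of 10 reads and Benjamini-Hochberg adjustment at 0.05 over 19423 genes. SE is the log2 fold change divided by the root of F. CPM are counts per 1000000 counts. The coefficient of biological variation was 15.8%. Alternatives used DESeq2 1.42.0, sva 3.50.0 and other filters and subsets. The procedure was tested on simulated data. No molecular identifiers separate PCR copies.

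The members, the 47 gene lists and the rules were chosen with earlier results of these data known. Genes were named by rule: the called genes of smallest p (20 higher, up to 10 lower), up to 4 called members of a list or its 2 most abundant, Cdkn2a, Cdkn2b, Mtap and App, and 5 interaction genes. Promoters are RefSeq's. Other genes given with values, such as Npnt, Insig1, Syk, Ctsd, Apoe and C4b, lie outside this rule or were chosen after their values were seen, and some genes named by the rule are given by count only. Some results are not reported here.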

Additional observations from a re-analysis of the deposited data

Results flagged for a closer look

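Within the 6 libraries of a group, 14 of 206 gene and group combinations examined had 1 library far from the other five; chance gives about 1 in 20. p16KO 7 was the high library for 4 genes: Lcn2 (19.2 CPM, next 0.249), Cd4 (6.51, next 1.30), Il1r1 (40.3, next 24.7) and H2-D1 (74.3, next 44.3). p16KO 8 was high in Cdkn1b (77.2 CPM, next 67.0), Fosl2 (89.2, next 72.6) and Rrm1 (23.3, next 22.5). p16KO 9 was high in Gpr84 (0.887 CPM, next 0.634), and p16KO 10 in Ly9 (0.475 CPM, next 0.242) and Olfr111 (0.0594 CPM, the other five at 0).

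Among AppNLGF_p16KO libraries, 19 was high in Arl11 (1.17 CPM, next 0.984) and 21 in Lgi2 (147 CPM, next 96.1). Library 23 was high in Lrp1 (347 CPM, next 210.1) and low in Ei24 (112 CPM, next 132).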

How the results depend on the processing

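The 48 genes called became 103 with DESeq2 (73 higher), 19 with the groups compared alone, 29 without the library past the distance limit and 22 at an adjusted p under 0.01. Without 1 library it ran from 29 to 61. Size factors, other filters, no robust dispersion, a sex term and 1 surrogate variable gave 37 to 48. With DESeq2 the interaction had 1 call in place of 0 and AppNLGF minus WT 151 in place of 62. Without AppNLGF_p16KO 23 the interaction had 2273 genes at an unadjusted p under 0.05 in place of 1021, and 0 calls. The Cdkn2a difference of 0.0650 CPM was 0.0506 to 0.0803 without 1 library, and its p missed 0.05 in 5 of those fits (0.0626 to 0.0666 CPM).

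Values of single genes that changed sign belonged to 9 genes, none of them called. Over the fits without 1 library, their log2 fold changes ran for C5ar2 from -0.15 to 0.014, for Cd4 from -1.04 to 0.34, for Ifi27 from -0.0141 to 0.14, for Igfbp5 from -0.15 to 0.0451, for Lcn2 from -4.54 to 0.32, for Lrp1 from -0.25 to 0.0533, for Mt1 from -0.0539 to 0.15, for Pcna from -3.05e-04 to 0.0889 and for Rrm1 from -0.0461 to 0.0422. Lcn2, Cd4 and Ifi27 changed sign without p16KO 7 and C5ar2 without p16KO 12. Without the library past the distance limit Pcna was at -3.05e-04, Igfbp5 at 0.0141 and Rrm1 at -0.0461. Rrm1 was at -0.00424 with DESeq2, -0.00343 with RLE size factors, -0.00207 with 15 reads in 3 libraries, -4.35e-04 with no filter and -0.00231 with the groups alone. The cause was not tested. List medians changed sign without 1 library for 11 of 47 lists, whose medians with all libraries were at most 0.0924 in size. Those of astrocyte markers, lipid transport around Apoe and glutamate receptors did so without AppNLGF_p16KO 21 (-0.02, -0.02 and 0.02).

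No paired analysis was possible because the sample numbers 1 to 23 are not shared between groups. Where genes have under 1 CPM, as Pdcd1, Ccl4, Olfr111 and Ly9 do, few reads limit the fold change. Whether mice shared a litter or a day is not given in the labels, so handling and genotype cannot be told apart.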

Other observations

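By chromosome, the 48 called genes were most frequent as a share of the genes tested on chromosome 17, at 5 of 914 (0.547%), and by number on chromosome 11, at 7 of 1445. Those of chromosome 17 lay between 27.1 and 48.4 Mb: Ip6k3, Bnip5, H2-Ob, Olfr111 and Trem2. Chromosomes 8, 10, 12, X and Y and the mitochondrial genome had 0 calls. These counts were made after the calls were seen and carry no test.

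In all, 22 of the 48 called genes were in at least 1 of the 47 lists and 26 in none. Genes with a call were found in 11 lists. Olfml3 and Grn, chosen after their values were seen, did not pass but lay close to the threshold: the microglial gene Olfml3 was at log2 0.42 ± 0.10 without p16 (adjusted p = 0.0635) and 0.46 ± 0.10 with it (adjusted p = 0.0321), and Grn at 0.26 ± 0.06 in each (0.0639 and 0.0775). The mitotic kinase gene Cdk1 was at 0.313 to 0.689 CPM in p16KO and 0.534 to 1.01 CPM in AppNLGF_p16KO (log2 0.62 ± 0.21, adjusted p = 0.387).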
